A study of Homo sapiens with 12 samples.

Results

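The transcriptional response to TGFβ was followed in MDA-MB-231 cells that were kept under alisertib. Libraries of cells given TGFβ and alisertib together (the combination libraries 10, 11 and 12) were compared with libraries of cells given alisertib alone (libraries 7, 8 and 9). These are 6 of the 12 libraries of the series. Every gene that passed a filter on low counts entered the comparison, which left 20571 of 57773 genes, 14102 of them protein coding. The other 6 libraries, 3 of untreated cells and 3 of cells given TGFβ alone, served to set the TGFβ effect with alisertib beside the effect without it. They were also part of the same fit and so of its estimate of the spread within groups.

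MDA-MB-231 is a human triple-negative breast cancer line, long established, here grown in DMEM with 10% FBS. Treatments lasted 48 h, and both groups of the comparison carry alisertib, so the difference between them is the addition of TGFβ. The labels give neither doses nor an order of addition. Whether the 3 libraries of a group are separate cultures is not said in the labels. The p-values here reflect the spread within groups over all 12 libraries, which were fitted together, and that spread may be technical.

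TGFβ is a secreted dimer that brings type I and type II receptor kinases together, which phosphorylate SMAD2 and SMAD3. These join SMAD4, enter the nucleus and act on genes for extracellular matrix, cytoskeleton and proteolysis, and on their own inhibitors. In carcinoma cells TGFβ is known for epithelial-mesenchymal transition (EMT), invasion and, in some settings, growth arrest. Alisertib is a small-molecule inhibitor of Aurora A, a kinase of centrosome maturation and spindle assembly.

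Total counts were 97048328 to 105563951 with alisertib alone and 105921831 to 120619368 with the combination. Levels are given as CPM, which are counts relative to a TMM-adjusted library total, and log2 fold changes carry a standard error (SE). A gene was called at an adjusted p under 0.05 in edgeR's quasi-likelihood test, adjusted by Benjamini-Hochberg over all tested genes. In each group 1 library, here called the one that stood apart, had GC-rich genes below and GC-poor genes above the mean of the group. The Spearman rho of deviation against GC content across 11083 genes was -0.743 in alisertib library 9 and -0.793 in combination library 10, and -0.754 and -0.755 in untreated library 1 and TGFβ library 6. The other libraries gave rho of 0.189 to 0.807, and the 0.807 of untreated library 2 was larger in size than that of untreated library 1. Deviations were taken from each group's own mean, so opposite signs within a group are built in. The libraries said to stand apart are those of negative rho, and rho alone does not single out 1 library per group. The TGFβ effect itself rose with GC content across genes (rho 0.266 with alisertib and 0.251 without). Several counts below are also given without these libraries, though not those of every list.

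TGFβ changed 7901 genes in alisertib-treated cells, 38.4% of those tested: 3998 rose (19.4%) and 3903 fell (19%). By at least 2-fold, 1016 rose and 942 fell. Most called changes were small: the median size on the log2 scale was 0.55 among genes that rose and 0.46 among those that fell, while 147 rose and 95 fell by at least 8-fold. Without the 4 libraries that stood apart, 10098 genes were called. Of the 766 tested members of the gene lists described below, 284 rose and 266 fell. A list called more often than all tested genes is thus not unusual among these lists. The first principal component of the 6 libraries of the comparison and the 6 others held 92.4% of the variance of the most variable genes, with scores of -29.91 to -27.67 with alisertib alone and 25.33 to 32.25 with the combination, library 10 being the lowest of its group.

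The line's own markers were present before and after TGFβ. The summed level of 10 markers of mesenchymal triple-negative lines, among them VIM, CD44 and EGFR, was 7240 to 7384 CPM with alisertib. It was 9468 to 9744 CPM with the combination. Of the 10, 6 rose and 3 fell, among the latter CAV1 and AXL, by 0.60 and 0.48 on the log2 scale. Of 14 markers of luminal breast cells 7 passed the filter, and ESR1, PGR and FOXA1, which define that type, did not. The summed level of the 7 was 275.8 to 317.2 CPM with alisertib and 357.7 to 438.1 CPM with the combination. Of these 7, 3 rose and 2 fell, GATA3 and ERBB3, by 0.73 and 1.54 on the log2 scale. Of 12 leukocyte markers 6 passed, without CD3E, MS4A1 and CD2, and their summed level was 67.02 to 72.99 CPM against 81.65 to 93.06 CPM, nearly all of it CD68. Of 8 endothelial markers 3 passed, and these rose together from 35.38 to 40.1 CPM up to 93.08 to 117.9 CPM, whereas CDH5, VWF, CLDN5 and EMCN did not pass.

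Ligands of the pathway went both ways. Of 11 tested ligands and latency proteins, 6 rose, 3 fell and 2 did not pass, with a median log2 fold change of 0.79 against 0.01 over all tested genes. TGFB1, the most studied isoform, stood at 23.4, 22 and 20.1 CPM in alisertib libraries 7, 8 and 9 and at 41.8, 53.3 and 53.9 CPM in combination libraries 10, 11 and 12. The groups did not overlap, and the log2 fold change was 1.19 ± 0.13 (SE, adjusted p = 5.93e-06). TGFB2, another isoform, went the other way, from 161, 166 and 164 CPM to 79.4, 70.9 and 72.9 CPM, a log2 fold change of -1.14 ± 0.05 (adjusted p = 4.39e-10). Every combination library lay below every alisertib library for TGFB2. Per length, as mean of the authors' RPKM values, TGFB2 stood at 29.8 and TGFB1 at 6.34 with alisertib alone, while the values were 12.8 and 13.5 with the combination. Reads of TGFB1 may include those of genes that overlap it, such as HNRNPUL1 and CCDC97, because the libraries do not mark strand. LTBP2, LTBP3 and LTBP4, which tether latent TGFβ in the matrix, rose by 2.38, 1.19 and 1.27 on the log2 scale. INHBA, a subunit of activin, rose by 1.08, and the low TGFB3 fell by 0.61.

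Receptors and SMADs moved less. Of 10 tested receptors 3 rose and 3 fell (60% called, beside 38.4% of all tested genes), with a median log2 fold change of -0.02. TGFBR2, the type II receptor, rose from 193 to 198 CPM up to 287 to 292 CPM (log2 fold change 0.56 ± 0.04, adjusted p = 3e-08). TGFBR1, the type I receptor, gave -0.02 ± 0.06 (adjusted p = 0.839). TGFBR3, the co-receptor that presents TGFβ2, fell from 31.1, 33.6 and 33.8 CPM to 14.4, 13.4 and 12.4 CPM, a 2.45-fold decrease. BMPR2 and ACVR1, receptors of the BMP branch, rose by 0.62 and 0.35. Among 8 SMADs and their adaptors, 1 rose and 3 fell (50% called, not far from the 38.4% of all tested genes). With an offset for GC content 2 rose. SMAD3 stood at 298, 302 and 302 CPM and at 195, 198 and 190 CPM with TGFβ, a decrease of 1.55-fold. SMAD2 fell by 0.46 on the log2 scale, SMAD4 gave 0.10 ± 0.05 (adjusted p = 0.154), and SMAD5 rose by 0.24. The 2 receptor-regulated SMADs of the TGFβ branch were both lower at 48 h, while the common SMAD was not called.

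Most of the pathway's feedback inhibitors rose. Of 11 tested 8 rose, 1 fell and 2 did not pass, with a median log2 fold change of 0.84. PMEPA1, a membrane protein that binds SMAD2 and SMAD3 and recruits ubiquitin ligases (chr20:56223448-56286592, hg19), stood at 102, 85.4 and 89.1 CPM and at 882, 981 and 1005 CPM with TGFβ. Combination library 10 was the lowest of its group and still far above each alisertib library. The change was 10.4-fold (log2 3.38 ± 0.07, adjusted p = 2.71e-13). SMAD7, the inhibitory SMAD, rose from 12.3, 11.6 and 11.5 CPM to 46.8, 50.3 and 51.7 CPM, which is 4.2-fold. SKIL, a corepressor of SMAD complexes, rose 3.54-fold. SMURF2 and SMURF1, ubiquitin ligases of the receptors, rose by 0.92 and 0.84. TGIF1, a corepressor, fell by 0.13, a call that was lost without alisertib library 8 or 9, without combination library 10 or 11, and with no filter on low counts.

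A promoter of PMEPA1 is shown because the short SMAD-binding letters CAGACA occur in it, while the gene's other promoter windows did not hold them. Sequences are from RefSeq on GRCh38.p14, whose coordinates differ from the hg19 positions given for genes, and cover the 120 bases before the start, 5′ to 3′ on the gene's strand, with the matching letters in capitals (PMEPA1, chr20:57710578-57710697, minus strand).
PMEPA1: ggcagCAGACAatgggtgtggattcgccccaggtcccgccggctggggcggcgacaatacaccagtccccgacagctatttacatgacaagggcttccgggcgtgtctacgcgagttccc
The match begins 115 bases before that start. Over the 250 bases before a start and on both strands, CAGACA occurred in 1 of 6 matched genes (16.7%), from 8 direct targets chosen for display. The share was 16.3% of all 27305 genes with a promoter in the table. The longer palindrome GTCTAGAC occurred in 0 of the 6, beside 0.231% of all genes. Counted per promoter window, as a gene can have several, CAGACA occurred in 1 of 11, beside 13.6% of all 35116 windows. These shares are a description of letters and not of binding.

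Direct SMAD targets moved almost as a block. Of 25 tested, 23 rose and 0 fell, and their median log2 fold change was 2.07. TGFBI, a secreted matrix protein named for its induction, went from 390.5, 391.5 and 385.1 CPM to 2548, 2551 and 2700 CPM, a 6.68-fold rise. The groups did not overlap. Per length, its mean RPKM of 292.7 with the combination was above that of PMEPA1 (150.1). PDGFB, a mitogen for mesenchymal cells, rose 22.3-fold from about 1 CPM (0.952, 1.3 and 0.879) to 20.5, 23.6 and 25.8 CPM. JUNB, an AP-1 subunit, rose 12.9-fold, with 19.4 CPM in library 10 beside 31.5 and 32.7 CPM in libraries 11 and 12. JUNB overlaps HOOK2, so some reads may belong to the latter. ADAM19, a metalloprotease, rose 9.09-fold, and PTHLH, the parathyroid hormone-related protein, rose by 3.04 on the log2 scale.

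The exceptions were CTGF and TSC22D1. CTGF, a matricellular protein (current symbol CCN2), stood at 89.5, 82.7 and 89.1 CPM and at 87.1, 88.4 and 87.5 CPM with TGFβ. The groups overlapped, and the log2 fold change was 0.01 ± 0.05 (adjusted p = 0.904). TSC22D1 gave 0.07 ± 0.05 (adjusted p = 0.246).

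**Figure D1:**
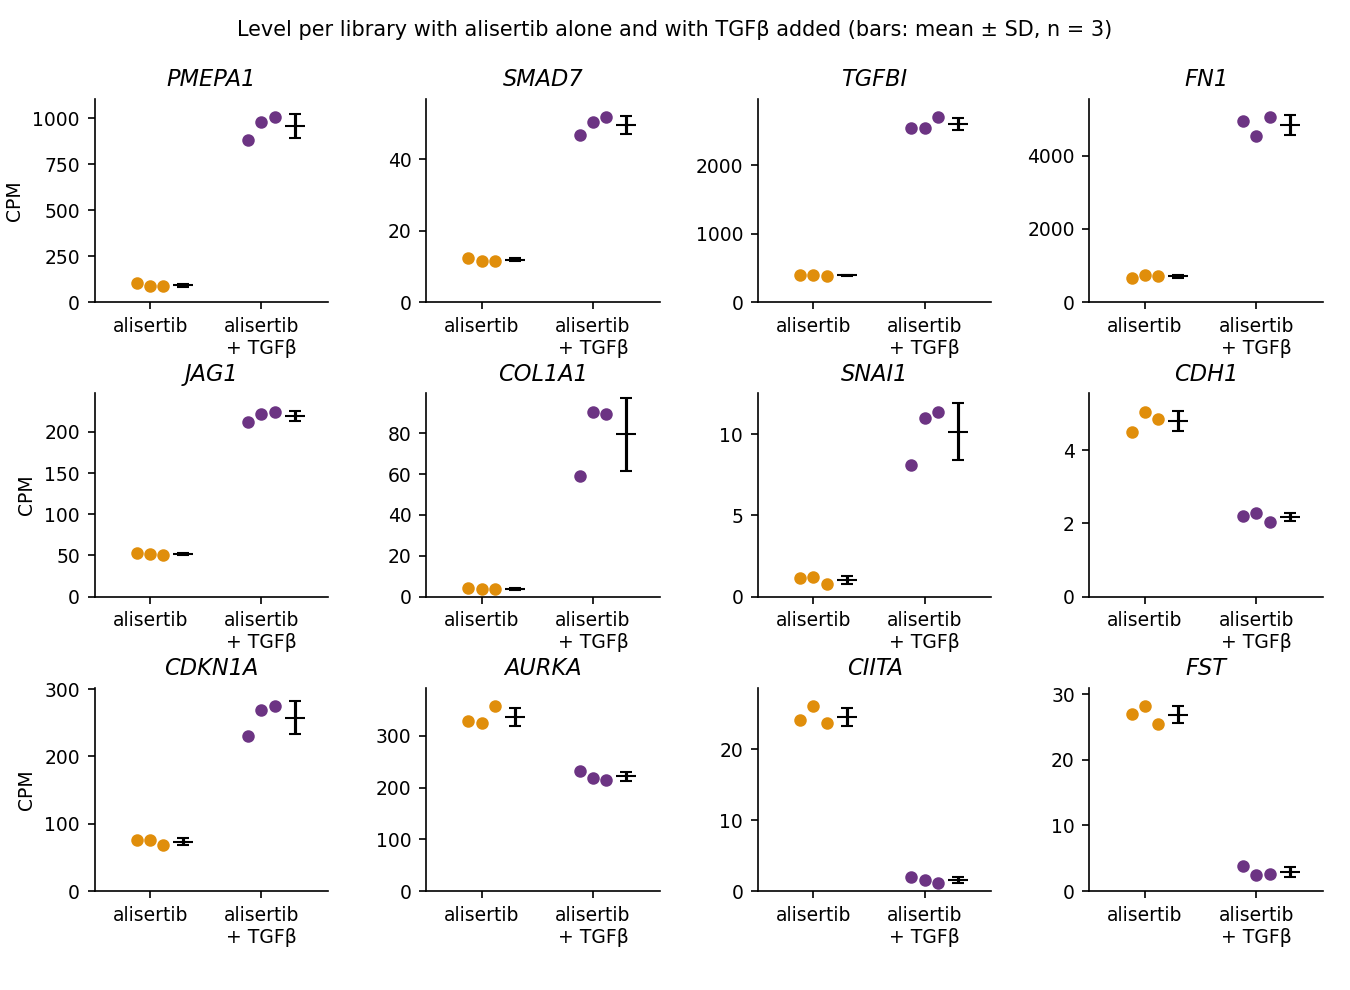
Level (CPM, linear axis from 0) of 12 genes in each of the 6 libraries of the comparison; points are libraries in the order 7, 8, 9 and 10, 11, 12, and bars give mean ± SD (n = 3). The groups do not overlap for any of the 12 genes, 8 being higher (PMEPA1 to SNAI1, and CDKN1A) and 4 lower (CDH1, AURKA, CIITA and FST) when TGFβ was added.

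Genes of the BMP branch went both ways, more often down. Of 14 tested genes of the BMP axis and the ID family, 7 fell, 3 rose and 4 did not pass, with a median log2 fold change of -0.84. BMP4, a BMP ligand, stood at 185, 188 and 175 CPM and at 37, 35.1 and 33.4 CPM with TGFβ, a 5.2-fold decrease. FST, which encodes follistatin, a binder of activin, fell 9.15-fold from 27, 28.2 and 25.5 CPM to 3.83, 2.39 and 2.62 CPM. Both groups were well separated for BMP4 and FST. ID1, ID2 and ID3, inhibitors of basic helix-loop-helix factors and classical BMP targets, fell by 1.48, 0.69 and 1.11 on the log2 scale. FSTL3, another activin binder, and BMP1, a procollagen protease despite its name, rose 4.52-fold and 3.08-fold.

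EMT factors and their marker genes gave a mixed picture. Of 12 EMT factors on the list 5 passed the filter: FOXC1 fell, ZEB2 gave -0.07, and ZEB1, SNAI2 and SNAI1 rose. SNAI1, a repressor of CDH1, stood at 1.14, 1.18 and 0.749 CPM and at 8.13, 11 and 11.4 CPM with TGFβ, a 9.91-fold rise. SNAI2 rose 1.56-fold and ZEB1 1.26-fold, from levels of 40.3 to 45.6 and 66.6 to 74.4 CPM. CDH1, the epithelial cadherin, was low throughout and fell from 4.5, 5.04 and 4.85 CPM to 2.19, 2.28 and 2.04 CPM, a 2.21-fold decrease. Of 13 mesenchymal markers 9 rose and 3 fell. VIM, the mesenchymal intermediate filament, rose 1.55-fold from 1313 to 1359 CPM up to 2034 to 2133 CPM. CDH2, the neural cadherin, rose 1.67-fold, and S100A4 and AXL fell by 0.68 and 0.48. Of 22 epithelial markers 12 rose and 5 fell, with a median of 0.32. Among those that rose were CDH3 (2.38), JUP (1.31) and KRT19 (0.68), while CLDN1 fell by 1.84. The call for KRT19 was lost with no filter on low counts (adjusted p = 0.0768).

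Of 21 tested matrix glycoproteins 10 rose, 4 fell and 7 did not pass, with a median log2 fold change of 0.53. FN1, which encodes fibronectin, stood at 646, 742 and 718 CPM and at 4939, 4525 and 5043 CPM with TGFβ, a 6.89-fold rise. Every combination library lay above every alisertib library for FN1. Laminin chains differed: LAMB3 rose by 1.48 on the log2 scale and LAMA3 fell by 1.74, from 66.4 to 71.4 CPM down to 18.8 to 22 CPM. Of 22 laminin and integrin genes 12 rose and 4 fell, with a median of 0.69. ITGAV and ITGA5, subunits of fibronectin and vitronectin receptors, each rose about 3-fold (3.08 and 3), and ITGB6, which with ITGAV can release active TGFβ, rose by 1.53.

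Of 19 tested collagen chains 11 rose, 2 fell and 6 did not pass, with a median log2 fold change of 1.41. COL1A1, the major chain of fibrillar collagen I, rose 20.5-fold from 4.4, 3.61 and 3.58 CPM to 58.9, 90.4 and 89.2 CPM, again with library 10 the lowest of its group. COL1A2, the other chain of collagen I, rose 5.82-fold, COL6A3 8.26-fold and COL7A1 5.06-fold. COL12A1 and COL8A1 fell 4.24-fold and 2.65-fold from levels far above that of COL1A1: COL12A1 stood at 497 to 535 CPM with alisertib alone. COL3A1, a further fibrillar collagen, was near 0.1 CPM and was not called (-0.74 ± 0.49, adjusted p = 0.259). With an offset for GC content, 4 collagens fell in place of 2. Of 16 genes of collagen processing 10 rose and 2 fell. LOX, a crosslinking enzyme, rose 2.56-fold, and its relative LOXL4 fell 6.16-fold from 164, 201 and 167 CPM to 32.4, 27.6 and 26.5 CPM.

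Proteases and their inhibitors were called at 22 of 26 tested genes, 15 higher and 7 lower. FAP, a serine protease known from activated fibroblasts (chr2:163027194-163101661, hg19), stood at 0.613, 0.553 and 0.679 CPM and at 33, 30.7 and 32 CPM with TGFβ. All libraries of a group were close together, and the change was 51.8-fold (log2 5.70 ± 0.13, adjusted p = 4.48e-13). MMP9, a gelatinase, rose 15-fold from 1.81, 1.73 and 1.6 CPM to 20.3, 27.7 and 29 CPM. PLAU, the urokinase plasminogen activator, rose by 2.25 on the log2 scale from 547 to 597 CPM up to 2513 to 2807 CPM. CPA4, a carboxypeptidase, and MMP24, a membrane-bound metalloprotease, fell 4.05-fold and 4.78-fold. Of 10 fibroblast markers 7 passed the filter and 4 rose, FAP, COL1A1, COL1A2 and PDGFRB. Their summed level went from 24.34 to 28.36 CPM up to 172.1 to 219 CPM, while LUM and COL3A1 were not called and DCN, THY1 and POSTN did not pass the filter. The part of such markers in the rise of matrix genes was not tested. More cells that express these genes and more of their RNA per cell cannot be told apart in these bulk libraries of a cell line.

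Cytoskeletal genes rose: 17 of 23 actin and contractility genes were higher and 4 lower, with a median of 0.50. TNS1, a focal adhesion protein, rose 10.7-fold, and TPM1 and TAGLN, actin-binding proteins, rose 3.55-fold and 3.53-fold. MYLK, the myosin light chain kinase, fell 3.07-fold from 93.3, 99.3 and 93.4 CPM to 30.6, 31 and 31.5 CPM. ACTA2, the smooth muscle actin often used as a marker of TGFβ exposure, was at 1.24 to 1.57 CPM and fell by 0.45 (adjusted p = 0.0368), and it overlaps FAS. Targets of YAP and TAZ, coactivators that respond to tension, were mostly lower: 14 of 23 fell and 4 rose, with a median of -0.36. Neither tension nor the activity of YAP and TAZ was measured. ANKRD1 fell 3.55-fold and CYR61 by 0.36, whereas GADD45B and NT5E rose by 1.42 and 1.02.

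Cell-cycle genes were mostly lower, by small amounts. Of 40 mitotic genes 35 fell and 0 rose, with a median log2 fold change of -0.35, and without the libraries that stood apart 37 fell. AURKA, the kinase that alisertib inhibits, stood at 328, 324 and 357 CPM and at 232, 219 and 214 CPM with TGFβ. The groups did not overlap, and the change was a 1.52-fold decrease (log2 -0.60 ± 0.06, adjusted p = 3.05e-06). AURKB gave -0.17 ± 0.07 (adjusted p = 0.09). It was called lower with the offset for GC content and without the libraries that stood apart (adjusted p = 1.33e-05 and 0.00447). NEK2, a centrosomal kinase, ANLN, a scaffold of cytokinesis, and HMMR, a spindle protein, fell 1.52-fold, 1.49-fold and 1.5-fold. PLK1, CDK1 and CCNB1, which drive mitotic entry, fell by 0.33, 0.34 and 0.46.

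Of 39 DNA replication genes 27 fell and 0 rose, although without the libraries that stood apart 2 were called higher beside 30 lower. E2F2, MCM10 and MCM6 fell by 1.03, 0.61 and 0.53. CDKN1A, the CDK inhibitor p21, rose from 76.2, 75.8 and 68 CPM to 230, 269 and 274 CPM, a 3.51-fold rise. CDKN1B, its relative p27, fell by 0.49, and CDK6 rose by 0.93. Of 22 tested p53 targets, CDKN1A among them, 10 rose and 4 fell. The line is p53-mutant, and p53 activity was not measured. TP53I3 and DDB2 rose 8.89-fold and 3.38-fold, while MDM2 fell by 0.29 and FAS by 1.05. Ribosome biogenesis gave 12 lower and 0 higher of 19, and 16 lower and 2 higher without the libraries that stood apart. Respiratory chain subunits gave 12 lower and 3 higher of 25, with 7 lower without combination library 11. All 3 of the latter, CYC1, NDUFV1 and UQCRC1, lost their calls without alisertib library 9 or without combination library 12.

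**Figure D2:**
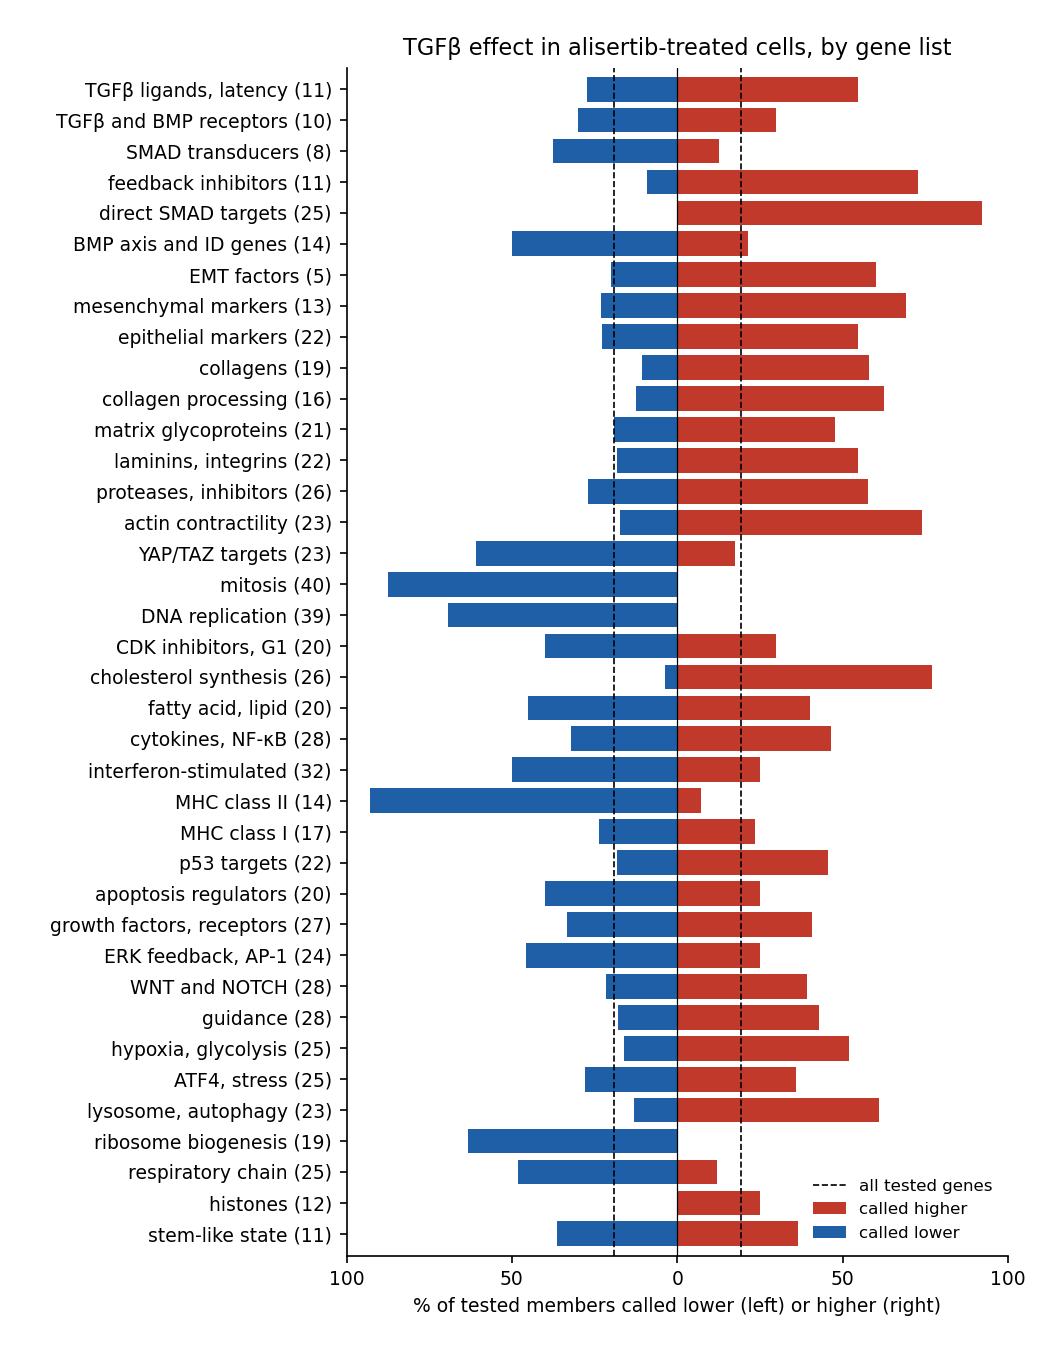
Share of the tested members of 38 gene lists that were called higher (right) or lower (left) when TGFβ was added to alisertib-treated cells; the number tested is in parentheses and dashed lines mark the shares over all tested genes, 19.4% and 19%. Direct SMAD targets and cholesterol synthesis lie mostly to the right, MHC class II, mitosis and DNA replication to the left.

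Genes of cholesterol synthesis rose as a group. Of 26 tested, 20 rose and 1 fell, with a median log2 fold change of 0.47. INSIG1, a sterol sensor and SREBP target, stood at 19.6, 19.8 and 18.9 CPM and at 61.6, 63.7 and 66.1 CPM with TGFβ. The groups did not overlap, and the rise was 3.28-fold. HMGCS1, an enzyme of the first steps, rose by 0.83, and STARD4, a sterol carrier, rose 2.02-fold from 24, 25.2 and 24.3 CPM to 50.5, 49.1 and 48.6 CPM. With an offset for GC content 4 members fell in place of 1. Fatty acid and lipid genes went both ways, 8 higher and 9 lower of 20. SCD, a desaturase, rose 2.09-fold, and PPARG, PDK4 and PPARGC1A fell 2.86-fold, 3.23-fold and 6.41-fold.

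MHC class II had the lowest median of the 43 lists. Of 14 tested genes 13 fell and 1 rose, with a median log2 fold change of -2.15. CIITA, the transactivator that switches on class II genes (chr16:10971055-11026079, hg19), stood at 24.1, 26.1 and 23.7 CPM and at 1.94, 1.58 and 1.07 CPM with TGFβ. The groups were far apart, and the decrease was 16.2-fold (log2 -4.02 ± 0.17, adjusted p = 1.58e-10). CIITA overlaps DEXI, so part of the remaining reads may belong to the latter. HLA-DRA, the α chain of HLA-DR, fell 8.99-fold from 163, 172 and 171 CPM to 24.3, 15.8 and 16.2 CPM. HLA-DMB and HLA-DOA, which regulate peptide loading, fell 8.35-fold and 12.2-fold, and CD74, the invariant chain, fell by 1.46 from 266 to 297 CPM down to 101 to 106 CPM. HLA-DRB1 and HLA-DRB5 are near-identical copies, so the split of reads between them is uncertain. CTSS, a protease that trims the invariant chain and is not restricted to this pathway, rose by 0.58. PTPRC, the pan-leukocyte marker, was at 0.133 to 0.18 CPM with alisertib and 0 to 0.0369 CPM with the combination, a decrease that was called (adjusted p = 0.00694). CD14, a monocyte marker, fell by 1.03 from a mean of 1.45 CPM to 0.712 CPM, while CD68, a lysosomal protein of macrophages that other cells also make, rose by 0.38. With the 3 other tested leukocyte markers not called, the part of such markers in the fall of class II genes was not tested. Class I genes went both ways: of 17 tested 4 rose and 4 fell. This is 47.1% called, not far from the 38.4% of all tested genes. The number that fell was 8 with an offset for GC content and 6 without the libraries that stood apart. B2M, the light chain of class I, gave -0.12 ± 0.05 (adjusted p = 0.0625).

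**Figure D3:**
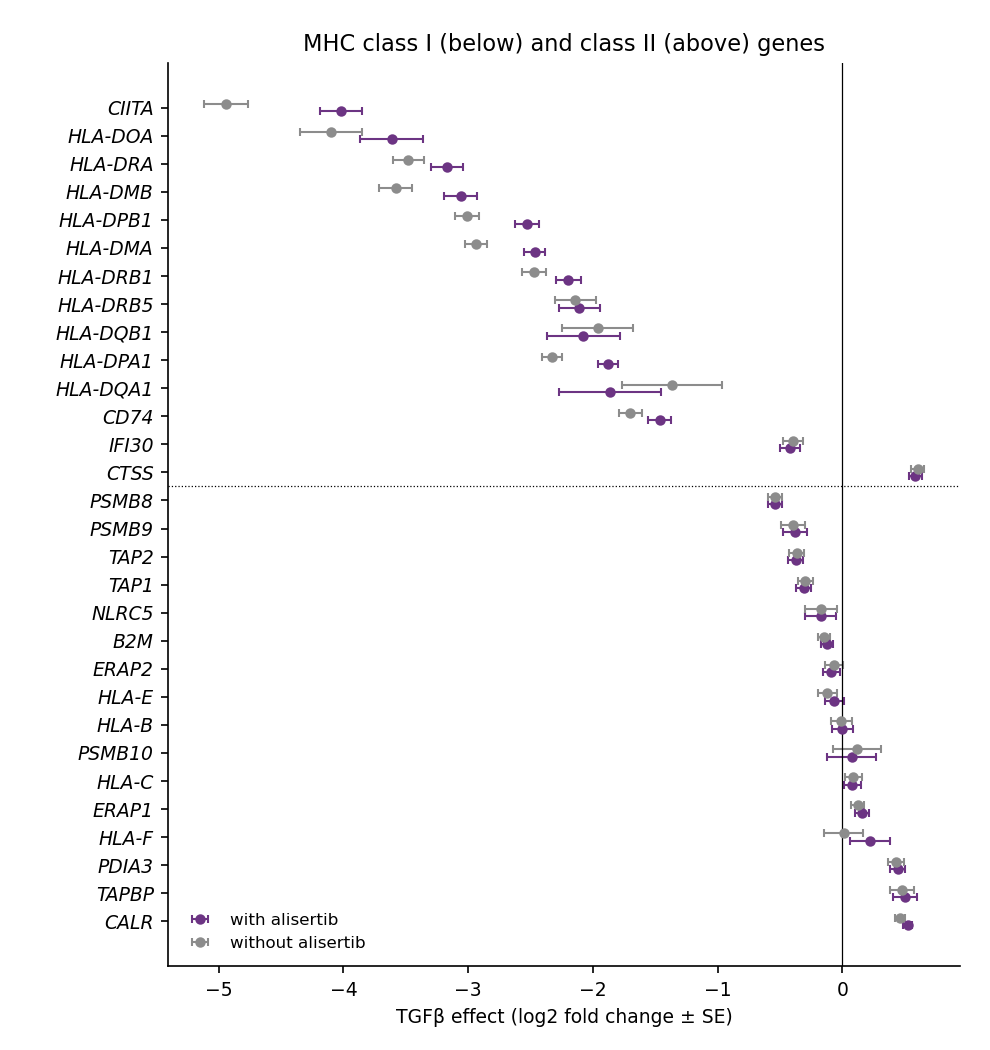
TGFβ effect (log2 fold change ± SE, n = 3 libraries per group) on the genes of the MHC class II list (above the dotted line) and genes of the MHC class I list (below), with alisertib and without it. In the class II list 13 of 14 genes lie left of 0 in both settings, and the class I genes shown lie between -1 and 1.

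Promoters of 4 of these class II genes are shown because they hold the Y-box letters CTGATTGG, which NF-Y is known to bind in class II promoters. Each covers the 120 bases before the start on GRCh38.p14 from RefSeq, on the minus strand, with those letters in capitals (HLA-DRB1, chr6:32589849-32589968; HLA-DRB5, chr6:32530288-32530407; HLA-DQB1, chr6:32666658-32666777; HLA-DMA, chr6:32953098-32953217).
HLA-DRB1: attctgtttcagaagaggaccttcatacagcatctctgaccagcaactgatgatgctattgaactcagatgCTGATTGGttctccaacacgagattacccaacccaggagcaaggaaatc
HLA-DRB5: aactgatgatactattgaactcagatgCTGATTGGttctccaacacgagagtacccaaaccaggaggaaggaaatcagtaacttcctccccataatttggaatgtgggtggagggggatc
HLA-DQB1: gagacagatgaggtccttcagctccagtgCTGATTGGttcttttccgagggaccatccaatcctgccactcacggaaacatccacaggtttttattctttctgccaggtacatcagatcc
HLA-DMA: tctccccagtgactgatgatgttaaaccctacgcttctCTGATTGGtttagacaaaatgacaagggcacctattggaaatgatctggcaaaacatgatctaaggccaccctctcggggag
The letters begin 49, 93, 91 and 82 bases before the start in HLA-DRB1, HLA-DRB5, HLA-DQB1 and HLA-DMA. They occurred in promoters of 4 of 11 matched genes of the class II list (36.4%) and of 4.59% of all genes, over 250 bases and both strands. The core ATTGG, which is part of those letters, occurred in 10 of the 11 (90.9%) and in 37% of all genes. No binding was measured here, and the log2 fold changes of these 4 genes were -2.20, -2.11, -2.08 and -2.47.

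Secreted signals and their feedback genes went both ways. Of 28 cytokine, chemokine and NF-κB genes 13 rose and 9 fell. IL24, a cytokine of the interleukin-10 family, fell 10.1-fold from 58, 57.4 and 57.9 CPM to 7.07, 5.08 and 5.03 CPM, and BIRC3, an NF-κB target, fell 2.49-fold. IL1A and IL11 rose 3.98-fold and 2.2-fold, while IL6 gave 0.02 ± 0.06 (adjusted p = 0.798). Interferon-stimulated genes were lower more often than higher, 16 against 8 of 32. GBP2 and IFIT1 fell 2.34-fold and 2.13-fold, and IRF7 rose 2.99-fold. Of 27 growth factors and receptors 11 rose and 9 fell. VEGFA, which drives vessel growth, rose 3.08-fold to 1234, 1344 and 1369 CPM from 417, 451 and 415 CPM. EREG and BTC, ligands of the EGF family, fell 5.06-fold and 3.37-fold, and ERBB3, of the EGF receptor family, fell 2.9-fold. SPRY1 and DUSP6, feedback inhibitors of ERK signalling, fell 4.68-fold and 2.46-fold, and JUN rose 2.31-fold, in a list with 6 higher and 11 lower of 24.

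Notch and guidance genes included several large rises. JAG1, a Notch ligand (chr20:10618332-10654694, hg19), rose 4.26-fold from 52.4, 51.6 and 50.5 CPM to 212, 221 and 224 CPM, and LFNG, which modifies Notch, rose 4.81-fold. DKK1, a Wnt antagonist, fell 2.21-fold from 302 to 319 CPM down to 135 to 150 CPM. SEMA7A and EPHB2, guidance molecules, rose 6.58-fold and 3.9-fold, and SEMA3D fell 5.76-fold at 0.412 to 4.19 CPM. In hypoxia and glycolysis 13 rose and 4 fell of 25, with 8 higher without alisertib library 9 or combination library 12. Without alisertib library 8 there were 2 lower, and without the libraries that stood apart 17 higher. In the lysosomal list 14 rose and 3 fell of 23, with 9 higher without alisertib library 9 or combination library 12. ULK1, a kinase that starts autophagy, rose 5.13-fold and TFEB, a regulator of lysosomal genes, 2.61-fold. HMOX1, the haem oxygenase, rose 4.33-fold, and TXNRD1 and NQO1, antioxidant enzymes, fell 2.26-fold and 1.67-fold. Among apoptosis regulators 5 rose and 8 fell of 20, and 8 rose without the libraries that stood apart. BMF, a BH3-only protein, rose 4.21-fold, and its relatives BCL2L11 and PMAIP1 fell 1.74-fold and 1.7-fold. In the stem-like list of 11 tested genes 4 rose, with KLF4 at 2.36-fold, and 4 fell, with SOX9 and ALDH1A3 at 1.93-fold and 1.97-fold. Of 12 histone genes, whose near-identical copies can share reads, 3 rose. The number that rose was 1 with each of the libraries 7 to 11 left out in turn, and 5 without the libraries that stood apart. The 25% of histone genes called lay below the 38.4% of all tested genes.

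The largest changes over all tested genes included several outside these lists. CGB8, a β subunit of chorionic gonadotropin with near-identical copies and an overlap with CGB1, went from 0.192, 0.0763 and 0.15 CPM to 11.4, 17.8 and 16.1 CPM, a 107-fold rise. C1orf106, DCLK1, a microtubule-associated kinase, and C4orf26 rose 23.9-fold, 23-fold and 21.3-fold. EVI2B, which lies in an intron of NF1 and may share reads with it, fell 12.9-fold. DMBT1, a secreted scavenger protein, fell 11.8-fold from 65.7, 67 and 63 CPM to 6.66, 5.42 and 4.6 CPM. SPINK4 and VIPR1, a receptor for vasoactive intestinal peptide, fell 11.5-fold and 9.29-fold from about 10 CPM. SPINK4 overlaps BAG1, so some of its reads may belong to the latter.

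Set beside the TGFβ effect in cells without alisertib, a comparison that shares no library with this one, the programme was largely the same set of genes. TGFβ changed 7940 genes there (38.6%), and 6510 genes were called in the same direction in both settings, 3221 higher and 3289 lower. They made up 82.4% of the calls with alisertib and 82% of those without, and 2 genes were called in opposite directions. Across the 20571 tested genes the log2 effects had a Pearson r of 0.856 and a Spearman rho of 0.791, given as a description since genes are not independent replicates. Of 1389 genes called with alisertib but not without it, 0 had a called difference between the effects, and of 1428 called without it but not with it, 3 did. At least 2-fold changes numbered 1958 with alisertib and 2241 without, 1647 of them shared in direction.

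**Figure D4:**
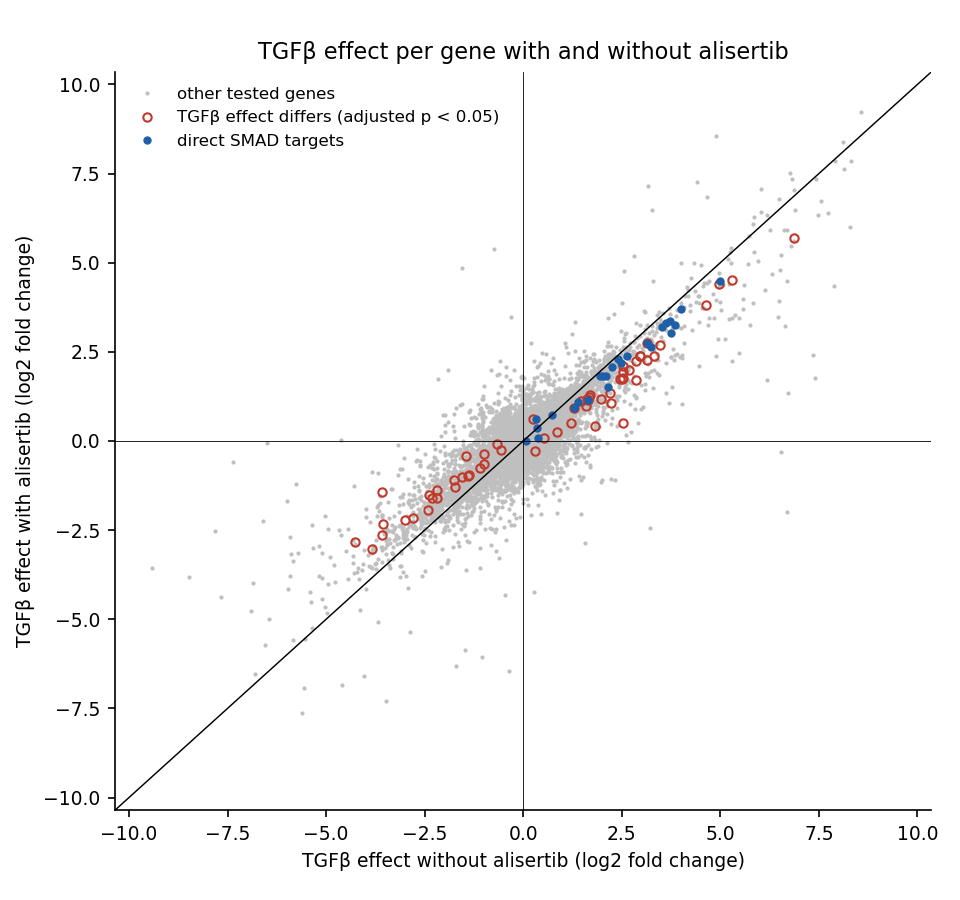
TGFβ effect (log2 fold change) of each of 20571 tested genes without alisertib (horizontal) and with alisertib (vertical); the line marks equal effects, blue points the 25 direct SMAD targets and red circles the 58 genes whose effect differed in the direct test. Of these 58 genes 56 lie nearer to 0 with alisertib, on the same side.

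The effects were on the whole a little smaller with alisertib. Among genes changed at least 2-fold in both settings, the median ratio of the log2 effect with alisertib to that without was 0.899 (quartiles 0.791 and 1.01). The median ratio was 0.937 without combination library 10 and 0.921 without all 4 libraries that stood apart. The direct SMAD targets had a median of 2.07 with and 2.24 without alisertib, MHC class II -2.15 and -2.40, cholesterol synthesis 0.47 and 0.62, and mitosis -0.35 and -0.37. Other lists had a median larger in size with alisertib, among them collagens (1.41 with and 1.31 without), matrix glycoproteins (0.53 and 0.39) and DNA replication (-0.245 and -0.206). No difference between these list medians was tested.

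A direct test of the difference between the effects called 58 genes, 0.282% of those tested, 24 higher and 34 lower with alisertib, and 1170 had an unadjusted p under 0.05. In 56 of the 58 the effect had the same sign and was smaller with alisertib. The count depended on the libraries: it was 744 without the 4 libraries that stood apart, of which 433 were smaller with alisertib, and 19 to 166 with 1 library left out, with the highest count when untreated library 1 was left out. All 58 were among the 744.

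The levels behind these differences are given as a description, since a difference between effects is by construction the difference at the end less the difference at the start, and the genes were chosen by it. Of 35 genes in the 58 that rose in cells without alisertib, 34 had a smaller effect with it, and 34 stood higher with alisertib alone than in untreated cells, by a median of 0.74 on the log2 scale. After TGFβ the 2 settings differed by a median of 0.08. ADAMTS6, a matrix metalloprotease, stood at 25, 21.9 and 19.9 CPM in untreated cells, 98.9, 99.7 and 107 CPM with TGFβ, 37.8, 37 and 39 CPM with alisertib and 96.7, 94.7 and 95.5 CPM with both. Its levels without TGFβ were separated by alisertib, and its levels with TGFβ nearly met. The TGFβ effect was 2.52-fold with alisertib and 4.58-fold without, a log2 difference of -0.86 ± 0.10 (adjusted p = 0.00294). JAG1 started at 35.5 to 37.6 CPM in untreated cells and 50.5 to 52.4 CPM with alisertib, and ended at 210 to 213 CPM with TGFβ and 212 to 224 CPM with both (log2 difference -0.43 ± 0.06, adjusted p = 0.00804). FAP followed this order at its very low start, 0.203 to 0.361 CPM in untreated cells, with a log2 difference of -1.17 ± 0.20 (adjusted p = 0.0281), a call kept in 3 of 12 fits with 1 library left out.

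Among genes lowered by TGFβ, all 23 had a smaller effect with alisertib. Their median start was lower by 0.37 on the log2 scale and their median end higher by 0.29. PDE4B, a phosphodiesterase for cyclic AMP, stood at 17.3, 15.5 and 15.8 CPM in untreated cells, 1.24, 1.42 and 1.38 CPM with TGFβ, 11.2, 12.3 and 11.5 CPM with alisertib and 1.91, 1.99 and 1.77 CPM with both. No groups overlapped, and the log2 difference was 0.96 ± 0.12 (adjusted p = 0.00674). EREG, a ligand of the EGF receptor, differed mostly at the end: 1.5 to 1.94 CPM with TGFβ against 3.79 to 5.45 CPM with both, from 18.7 to 21 and 20.9 to 23.5 CPM. Its log2 difference was 1.21 ± 0.18 (adjusted p = 0.0125).

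CDH11, a mesenchymal cadherin, was the exception of larger size with alisertib. It stood at 243, 244 and 258 CPM in untreated cells and 290, 294 and 297 CPM with TGFβ, but at 193, 192 and 192 CPM with alisertib and 298, 294 and 301 CPM with both. Its start was lower with alisertib and its end overlapped (log2 difference 0.39 ± 0.05, adjusted p = 0.00971). LINC00973, named after its values were seen, was the other exception, with log2 effects of -0.29 with alisertib and 0.31 without.

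**Figure D5:**
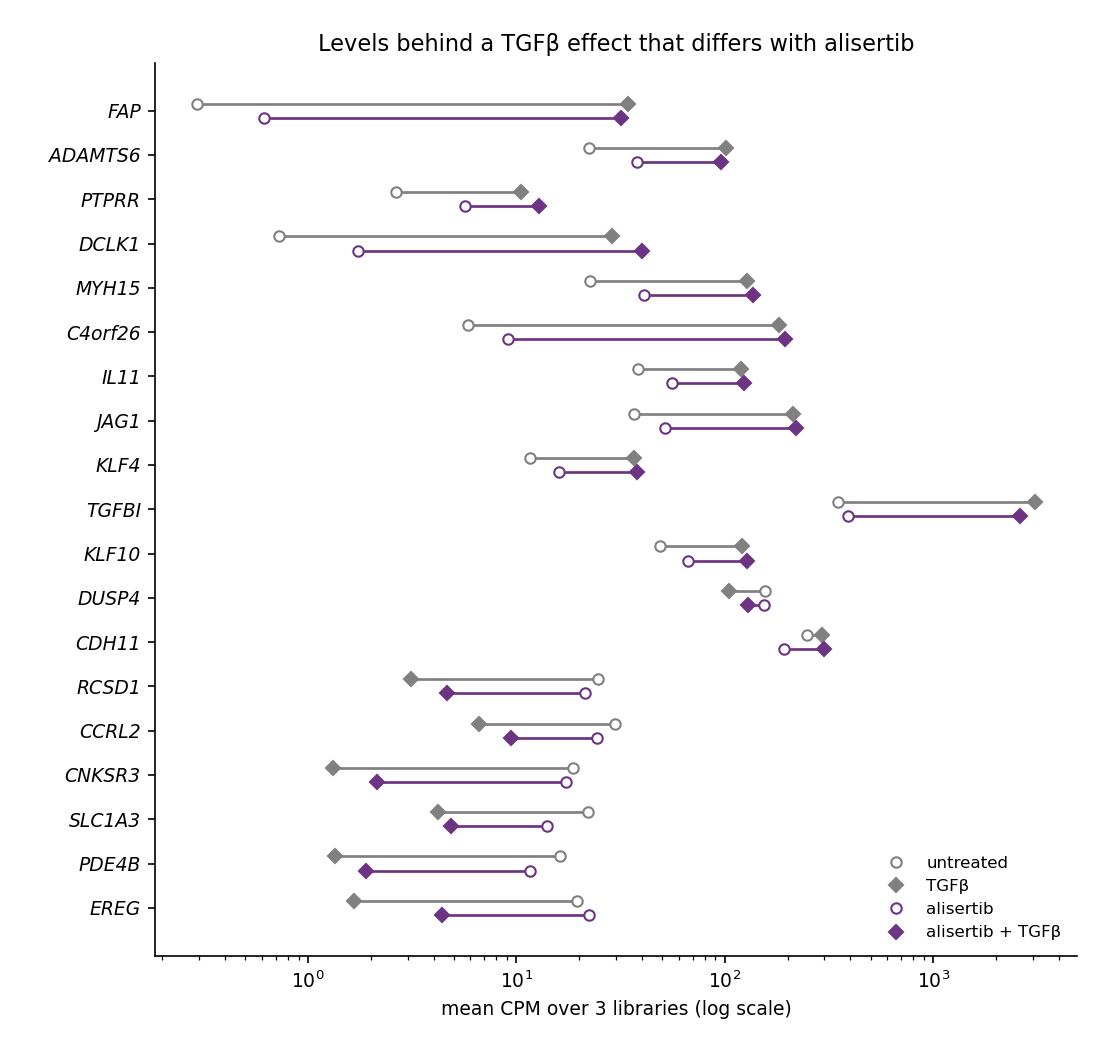
Mean level (CPM, log axis, n = 3 libraries per group) of the 19 named genes whose TGFβ effect differed with alisertib; circles are cells without TGFβ and diamonds cells with it, grey without alisertib and purple with it. For the 11 induced genes at the top the purple circle lies to the right of the grey one and, except for TGFBI, the diamonds lie closer together than the circles, and CDH11 shows the reverse order of circles.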

How the data were processed

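RNA-seq of 12 MDA-MB-231 libraries (4 groups of 3, assigned from the labels) was used. Per the labels' protocols, libraries came from total RNA with an unstranded TruSeq RNA v2 kit. Reads were processed with bcl2fastq, TopHat, Subread and featureCounts on hg19, per the submitters' processing notes (versions and settings: not given in the sources used here). Whole-number read counts per gene, without normalization, were deposited by the authors, with RPKM values whose denominators were 1.1 to 1.11 times the library's total count. Deposited gene coordinates gave the overlaps between genes, whose reads cannot be separated, like those of near-identical copies. The deposited gene length was used in no test.

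Counts as deposited were fitted in R 4.3.3 with edgeR 4.0.16 (filterByExpr, TMM, robust quasi-likelihood, all 12 libraries), with Benjamini-Hochberg adjustment over 20571 genes and calls at adjusted p under 0.05. The difference between TGFβ effects was tested in the same fit. The fit was tested on simulated data. A newer annotation gave current symbols for 19518 tested genes and GC content for 19649. Total counts of 93701658 to 120619368 per library set the depth.

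The gene set and the 43 lists (833 members, 766 tested) were chosen with earlier results of these data known. Named genes were fixed genes of the TGFβ, EMT and Aurora responses, up to 4 called members per list with the largest changes at a mean of at least 1 CPM and up to 2 against the list's direction, the 8 highest and 8 lowest changes at 5 CPM or more without overlap, and the 6 highest and 6 lowest called differences with all list members called there. Some genes that this rule names are not reported here. Other list members are named as examples, after their values were seen. Of the fixed genes, CD24 was not matched and ALDH1A1 was not tested. Alternatives were DESeq2 1.42.0, its size factors, other filters, a GC offset, and leaving out libraries. A covariate for the libraries that stood apart was chosen after seeing the data.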

Additional observations from a re-analysis of the deposited data

Results flagged for a closer look

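The TGFβ effect differed between cells with and without alisertib, by the direct test of the difference in edgeR's quasi-likelihood fit, for 19 named genes. The values are log2 differences, the effect with alisertib minus the effect without it. Among genes induced by TGFβ the difference was -1.17 for FAP, -0.86 for ADAMTS6, -0.79 for PTPRR, a receptor tyrosine phosphatase, -0.77 for DCLK1, -0.76 for MYH15, a myosin heavy chain, and -0.54 for C4orf26. It was -0.52 for IL11, -0.43 for JAG1, -0.42 for KLF4, -0.40 for TGFBI and -0.36 for KLF10, a TGFβ-inducible transcription factor. CDH11, also induced, gave 0.39.

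Among genes lowered by TGFβ the difference was 0.31 for DUSP4, a phosphatase of ERK, 0.79 for RCSD1, 0.80 for CCRL2, an atypical chemokine receptor, 0.81 for CNKSR3, 0.86 for SLC1A3, a glutamate transporter, 0.96 for PDE4B and 1.21 for EREG. In 5 of the 19 genes (ADAMTS6, CCRL2, JAG1, MYH15 and PDE4B) the difference was called with each of the 12 libraries left out in turn. The other 14 lost the call with at least 1 library left out, and DUSP4 kept it in 1 of 12.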

How the results depend on the processing

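No paired analysis was possible because the replicate numbers run 1 to 12 and are not shared between groups. The count of genes changed by TGFβ with alisertib stayed within 1.5 times of the value reported, at 6239 to 10485 over the settings tried. Fewer genes rose than fell with no filter (3314 and 3751) and with a stricter one (3273 and 3904), and likewise without alisertib library 7 (3422 and 3588), 8 (3289 and 3407) or 9 (2993 and 3411) and without combination library 12 (2931 and 3308). With the stricter filter the genes changed at least 2-fold were 642 higher and 552 lower. The difference between TGFβ effects gave 181 genes with DESeq2 (70 higher, 111 lower, 170 smaller with alisertib). It gave 105 with no filter (50, 55 and 96), 285 with a GC offset (121, 164 and 259), 744 without the libraries that stood apart (479, 265 and 433) and 382 with a covariate for them (184, 198 and 341). With 1 library left out it gave 19 to 166 genes, 4 to 80 higher, 12 to 86 lower and 18 to 152 smaller with alisertib. The cause was not tested. The share of displayed promoters with SMAD-binding letters went from 16.7% to 0% with the longer palindrome. Of 1204 list counts recomputed, 41 moved by over 1.5 times. Named genes kept the sign of the TGFβ effect and of its difference in every alternative run, except CTGF, which was not called. Among named TGFβ effects, calls lost in some settings were those of ALDOA, BBC3, BTG2, CYC1, HIST1H2BD, HIST2H2BE, KRT19, MVD, NDUFV1, TGIF1 and UQCRC1. The difference for IL11 lost its call with the GC offset (adjusted p = 0.458) and that for DUSP4 with DESeq2's size factors (adjusted p = 0.0712).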
